A study of Caenorhabditis elegans with 2 samples.

Results

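Annotated piRNA loci of Caenorhabditis elegans that did not appear as clean 21 nt clusters were examined in a small RNA library. The clusters were taken from the deposited list of overlapping reads by 3 conditions. Their annotation on the read strand named a piRNA (the class the list calls u21RNA), it named no rRNA, tRNA, snRNA, snoRNA or miRNA and no other non-coding entry of the list's added annotation, and their width was not 21 nt. The conditions left 370 clusters with 13972 reads, of 1913 annotated piRNA clusters with 35047 reads and of 51569 clusters in the whole list. The other 1543 piRNA clusters were exactly 21 nt wide and serve as the comparison. The series describes 2 libraries from lysed whole worms of the strain fem-1, both made from TRIZOL-extracted RNA with an Illumina small RNA protocol. The monophosphate library was made to catch RNAs with a 5′ monophosphate, and the polyphosphatase library also triphosphate-bearing secondary siRNAs. The deposited list belongs to the monophosphate library, with 1417144 reads in its clusters; the polyphosphatase library was not analysed here. The allele, the age and the growth temperature of the worms are not given in the sources used here. With 1 library there was no replicate and no test between conditions, and intervals are exact 95% intervals that cover counting error only.

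piRNAs of worms, also called 21U-RNAs, are short RNAs bound by the Piwi protein PRG-1 that guard the germ line against foreign sequence. Most are made from a great many small separate genes on chromosome IV, each transcribed into a short capped precursor. The cap and the first bases of the precursor are then removed, the 3′ end is trimmed by PARN-1 and methylated by HENN-1, and the product carries a 5′ monophosphate. A cluster in the list is the outer span of all reads that overlap each other, so a cluster narrower than 21 nt holds no full-length piRNA read, and a wider one holds a longer RNA or several RNAs shifted against each other.

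Wide clusters were the rule among these loci. Of the 370 clusters, 286 (77.3%, 72.7 to 81.5) were wider than 21 nt and held 13854 reads, while 84 (22.7%, 18.5 to 27.3) were 18 to 20 nt wide and held 118 reads. The clusters of other widths were 19.3% (17.6 to 21.2) of annotated piRNA clusters and held 39.9% (39.4 to 40.4) of their reads. Widths are what selected the clusters, so these shares describe the group and are not a test of it.

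The widths were not spread evenly. There were 104 clusters of 22 nt, then 15 of 23 nt, 87 of 24 nt, 41 of 25 nt and 20 of 26 nt. Another 19 were 27 to 34 nt wide. The dip at 23 nt stood between the peaks at 22 and 24 nt, with 4.05% (2.29 to 6.60) of the clusters against 28.1% (23.6 to 33.0) and 23.5% (19.3 to 28.2). By reads the same dip was present, with 5960 reads at 22 nt, 956 at 23 nt, 4114 at 24 nt and 1777 at 25 nt. On the narrow side the number fell away from 36 clusters at 20 nt to 26 at 19 nt and 22 at 18 nt. Directly beside the boundary, clusters of 20 nt had a median of 1 read, those of 21 nt a median of 3 reads and those of 22 nt a median of 14 reads.

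**Figure D1:**
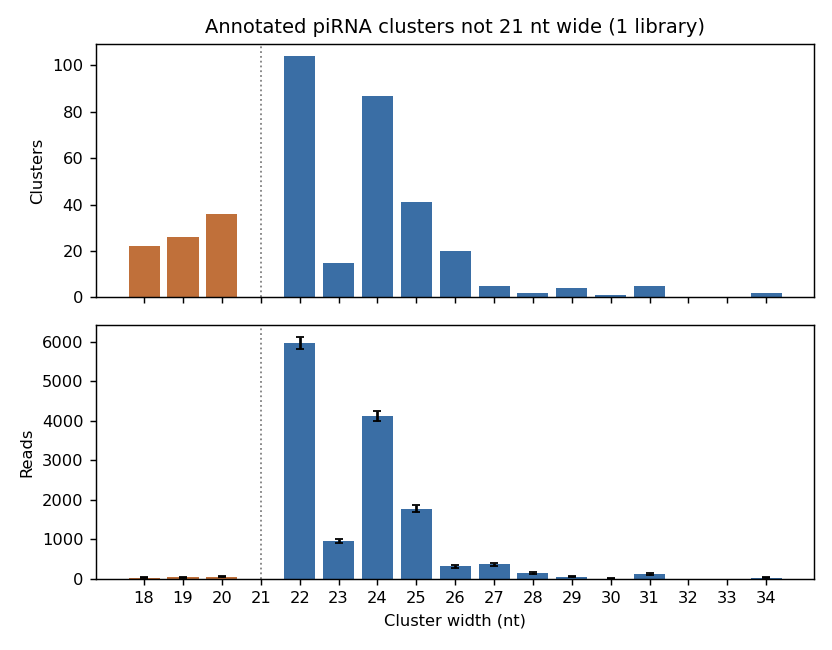
Annotated piRNA clusters not 21 nt wide, by cluster width in nt: number of clusters above and reads below, with exact 95% Poisson intervals on the reads; orange bars are narrower and blue bars wider than 21 nt, which the dotted line marks. The 22 nt (104 clusters) and 24 nt (87 clusters) bars stand above the 23 nt bar (15 clusters), and the narrow clusters hold 118 of 13972 reads.

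Narrow clusters were mostly lone reads. Of the 84, 59 (70.2%, 59.3 to 79.7) consisted of 1 read, and none had more than 4. Positions are as deposited, and the genome build they refer to is not stated. The 19 nt cluster over 21ur-5122 (IV 14290551 to 14290569, minus strand) held 4 reads of 1 sequence. The 19 nt cluster of 21ur-58 also held 4 reads, of 2 sequences. At 20 nt the largest number was 3 reads, in 21ur-4065 (IV 14850428 to 14850447, in an intron of Y57G11C.22, 1 sequence) and also in 21ur-1528. At 18 nt no cluster had more than 2 reads, and 19 of 22 had 1. Among those with 2 reads was the cluster over the piRNA locus WBGene00045742 (IV 6178198 to 6178215), which has no symbol in the table of gene names. No piRNA locus named by a cluster of another width was also named by a 21 nt cluster, so the loci under narrow clusters had no full-length read in the annotated piRNA clusters of that strand. The uniqueness value, which the list gives per cluster, was under 20 for 12 of the 84 narrow clusters (14.3%, 7.61 to 23.6), against 35 of 1543 clusters of 21 nt (2.27%, 1.58 to 3.14). These were 8 of 22 clusters of 18 nt, 3 of 26 of 19 nt and 1 of 36 of 20 nt, so at 20 nt the share was close to that of 21 nt clusters. The part of shorter sequence in these low values was not tested.

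Shortened reads also lay inside 21 nt clusters, where they do not change the width. Read lengths are not listed, but the list gives an entropy of the coverage profile that depends on how many reads cover each position. In clusters of 2 distinct sequences without edits, the lengths and read numbers of both RNAs that give exactly this value were solved for. Of 210 such 21 nt clusters, 186 had 1 solution. In 118 of these (63.4%, 56.1 to 70.4) it was a 21 nt RNA with a 20 nt RNA, in 40 with a 19 nt RNA and in 27 with an 18 nt RNA. The shorter RNAs made up 284 of 2578 reads, or 11%. A 21 nt cluster of 2 sequences without edits must hold a shorter RNA, so this share follows from the choice of clusters. Read lengths were tallied for piRNA clusters of 1 sequence and for those of 2 sequences with 1 solution. Over these, 4.37% of 9127 reads (3.96 to 4.81) were shorter than 21 nt, 95.3% (94.9 to 95.7) were 21 nt long and 28 reads (0.307%, 0.204 to 0.443) were longer. These 1537 clusters are the simpler ones of few sequences. Read lengths of the others were open or known within bounds, apart from 5 wide clusters of 3 sequences with 1 solution (219 reads), not tallied here. Of the 9127 reads, 8136 came from 21 nt clusters, which cannot hold a longer read, so these shares partly follow from the grouping. In these 1369 clusters of 21 nt, with 1 or 2 sequences, 3.49% (3.10 to 3.91) of reads were shorter. In the clusters of other widths, 85.6% of 991 reads were 21 nt long, 2.83% (1.89 to 4.06) were longer and 11.6% (9.68 to 13.8) shorter. Narrow clusters can hold only shorter reads and gave most of these. In wide clusters of 2 sequences with 1 solution, 4 of 872 reads (0.459%) were shorter. Wide clusters of 3 sequences were not in this count and held between 87 and 158 shorter reads of 1509.

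Most of the wide 2-sequence clusters that could be solved were pairs of 21 nt RNAs shifted against each other, without an extended RNA. Among the 107 wide clusters with 2 sequences and no edits, 79 had 1 solution. These 79 held 872 of the 13854 reads in wide clusters. In 58 of the 79 (73.4%, 62.3 to 82.7) both RNAs were 21 nt long. A 21 nt RNA with a longer one was found in 17 (21.5%, 13.1 to 32.2), and other lengths in 4. In each of these 17 the longer RNA had 1 read. The 28 clusters with several solutions include 24 of 2 reads, in which equal numbers leave the lengths open to more than 1 reading.

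The shift between the paired 21 nt RNAs took few values. It was 1 nt in 26 of 58 pairs (44.8%, 31.7 to 58.5), 3 nt in 25 (43.1%, 30.2 to 56.8), 4 nt in 6 (10.3%, 3.89 to 21.2) and 2 nt in 1. None of these 58 pairs had a shift of 5 nt or more, which allows a share of up to 6.16% among such pairs. Larger shifts were hardly covered, since beyond 26 nt only 1 cluster of 29 nt and 1 of 31 nt had 1 solution. The 27 nt cluster of 21ur-4873 (2 reads), with several solutions, could hold 2 RNAs of 21 nt at a larger shift. The peaks of the width distribution at 22 and 24 nt are thus also present in these pairs, and 23 nt, the width that a shift of 2 nt gives, was the rare one in both. Which of the RNAs starts further 5′ cannot be read from the coverage entropy, since it is the same for a profile and its mirror image.

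**Figure D2:**
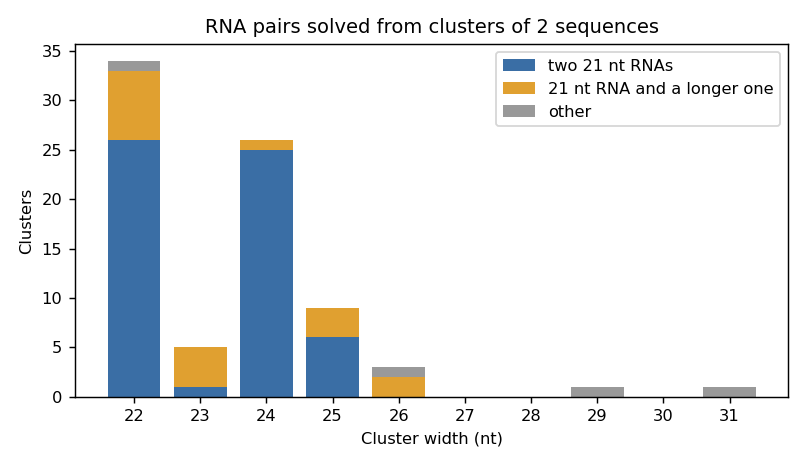
Wide piRNA clusters of 2 sequences with 1 solution, by cluster width in nt; bars count clusters, stacked by the RNA pair that gives the deposited entropy (blue, 2 RNAs of 21 nt; yellow, a 21 nt RNA and a longer one; grey, other lengths). Blue makes up 26 clusters at 22 nt and 25 at 24 nt, against 1 at 23 nt.

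The pairs differed in balance. In 21ur-309 (24 nt, 60 reads) and 21ur-3431 (24 nt, 34 reads), and in 21ur-2822 (22 nt, 31 reads), the lesser 21 nt RNA had 1 read each. In the 24 nt cluster that names both 21ur-467 and 21ur-757, it had 9 of 36 reads. Over the 58 pairs the lesser RNA had 106 of 582 reads, or 18.2%, and in 41 pairs it was 1 read. Without the pairs whose lesser RNA was 1 read, 18 solved clusters were left, of which 94.4% (72.7 to 99.9) were pairs of 21 nt RNAs. More than 1 piRNA was named by 10 of the 58 pair clusters (17.2%, 8.59 to 29.4), beside 21% of all wide clusters and 7.19% of 21 nt clusters. These genes and this split were chosen after their values were seen.

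Wide clusters of 3 sequences left more solutions open but gave bounds. Of 67 without edits, 66 had at least 1 solution, and in these between 84.9% and 92.9% of 1509 reads were 21 nt long. Reads longer than 21 nt numbered between 20 and 85, and shorter reads between 87 and 158. A longer read was required in 18 of the 66, and 48 had a solution with RNAs of at most 21 nt. In the remaining wide clusters, 34 had 4 or more sequences without edits (1051 reads), and 70 held edits and several sequences (10204 of the 13854 reads). Neither kind was solved, so the solved pairs do not describe most reads of wide clusters. The last 8 had 1 sequence. Those last 8 were single reads of 22 nt (1 cluster), 24 nt (1), 25 nt (2) and 26 nt (4), the only longer reads that stood alone on a piRNA locus in this list, and 1 of them held an edit.

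Pairs of shifted 21 nt RNAs were common in the piRNA regions and rare on messenger RNAs. For this comparison, clusters of 2 sequences without edits, 3 to 60 reads and 22 to 34 nt were solved in the same way in each class. Pairs of 21 nt RNAs made up 58 of 77 solved clusters (75.3%, 64.2 to 84.4) on annotated piRNA loci. In the 2 piRNA windows of chromosome IV, which were set for this work, clusters with neither piRNA nor exon annotation gave 27 of 43 (62.8%, 46.7 to 77). The share was 6 of 219 (2.74%, 1.01 to 5.87) in sense of coding exons and 0 of 51 antisense to them, which allows up to 6.98%, while 0 of 14 miRNA clusters allow up to 23.2%. A longer read was part of 20.8% (12.4 to 31.5) of the solved piRNA clusters, of 72.6% (66.2 to 78.4) in sense of exons and of 96.1% (86.5 to 99.5) antisense to them. A shift of 3 nt made up 25 of 77 solved clusters at annotated loci (32.5%, 22.2 to 44.1) and 4 of 43 at unannotated ones (9.30%, 2.59 to 22.1), with a shift of 1 nt in 26 and 19. Clusters of 1 library share their source, so no p-value is given for these differences, and typical RNA length differs between the classes.

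**Figure D3:**
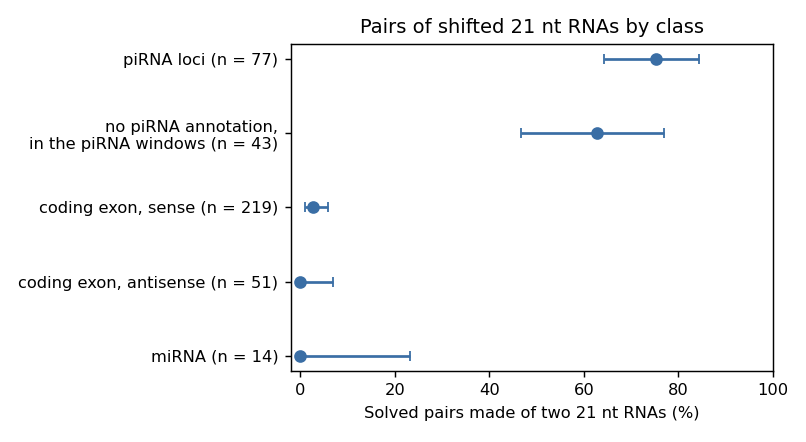
Share of solved 2-sequence clusters made of 2 RNAs of 21 nt, in %, for 5 classes; points are shares, bars exact 95% intervals, and n the solved clusters. Annotated piRNA loci (75.3%) and unannotated clusters in the piRNA windows (62.8%) lie above sense exons (2.74%), antisense exons (0 of 51) and miRNAs (0 of 14).

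The more reads a piRNA locus had, the more often its cluster was wide. Wide clusters were 1.39% (0.600 to 2.71) of 577 clusters with 1 read, 12.9% (10.3 to 16) of 557 with 2 to 4 reads and 17.7% (13.6 to 22.3) of 317 with 5 to 9 reads. The share was 27.2% (22.1 to 32.7) of 287 clusters with 10 to 29 reads, 30.9% (22.4 to 40.4) of 110 with 30 to 99 and 58.5% (45.6 to 70.6) of 65 with 100 or more. Narrow clusters went the other way. They were 10.2% (7.88 to 13.0) of clusters with 1 read and 4.49% (2.93 to 6.55) of those with 2 to 4, and none of the 317 clusters with 5 to 9 reads was narrow, which allows up to 1.16%. A single further read can widen a cluster and none can narrow it, so width depends on read number by construction.

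**Figure D4:**
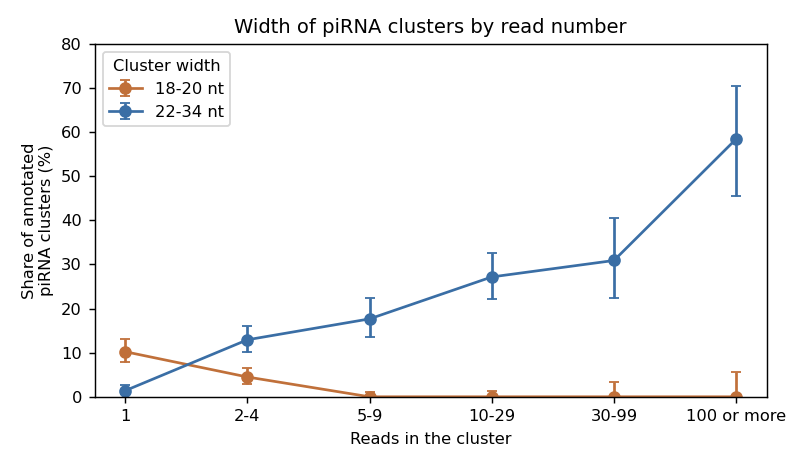
Share of annotated piRNA clusters, in %, that are 18 to 20 nt (orange) or 22 to 34 nt wide (blue), by the number of reads in the cluster; bars are exact 95% intervals. The wide share goes from 1.39% at 1 read to 58.5% at 100 reads or more, and the narrow share from 10.2% to 0.

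Reads among clusters of other widths were concentrated in few loci. The median was 6 reads, 67 clusters had 1 read, 38 had at least 100, and the 20 with the most reads held 53.7% (52.8 to 54.5) of the 13972. The first was 21ur-705, in an intron of lgc-52 on the same strand (IV 15238749 to 15238772, plus strand, 24 nt), with 1110 reads (1046 to 1177) of 12 sequences and 17 edits. It was followed by 21ur-609 (IV 15150481 to 15150502, minus strand, 22 nt) with 638 reads (589 to 689) of 7 sequences. The third was 21ur-4748, opposite to tag-273 (IV 14494608 to 14494630, plus strand, 23 nt), with 501 reads (458 to 547) of 8 sequences. The 25 nt cluster that names 21ur-88 and 21ur-4899 (IV 14328794 to 14328818, minus strand) held 491 reads (449 to 536) of 7 sequences. The counting intervals of 21ur-4748 and this cluster overlap, so their order is not resolved.

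The next places were taken by 21ur-3030 (22 nt, opposite to Y64G10A.7) with 473 reads of 11 sequences, 21ur-1404 (22 nt) with 430, 21ur-5107 (22 nt) with 415 reads of 10 sequences, and 21ur-3511 (24 nt) with 340 reads of 10 sequences. All 4 lay between IV 14312868 and 15496270. Then came 21ur-4750 (24 nt) with 312 reads, 21ur-3506 (24 nt, in an intron of srab-24) with 311, and the 25 nt cluster of 21ur-5086 and 21ur-3969 with 309 reads. That cluster had 14 sequences, the largest number among the clusters of other widths. The remaining ones of the first 20 ranged from 297 reads for the 24 nt cluster of 21ur-2129 and 21ur-1143 to 197 reads for 21ur-2179 (IV 6042248 to 6042274, 27 nt). Between these lay 21ur-2799 and 21ur-621 with 290 reads each, 21ur-14 (in an intron of jac-1) with 238, 21ur-3260 with 227, 21ur-4537 with 218, 21ur-3532 (in an intron of sra-30) with 208 and 21ur-3502 (opposite to noah-2) with 205. The uniqueness value was 8 for 21ur-3532 and 40 or 41 for the other 19, so reads of 21ur-3532 may belong to a near-identical locus. Of the first 20, 21ur-2179 lay in the first chromosome IV window and the others in the second.

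In most of these abundant clusters the coverage entropy was close to that of a single 21 nt block. If all coverage lies evenly on 21 positions, the profile entropy has a fixed value for each width, and 21ur-705 reached 99.1% of it. Among the first 20, 18 reached at least 84.9%, the cluster of 21ur-5086 and 21ur-3969 reached 74.3% and 21ur-621 reached 34.3%. Read as 2 shifted RNAs of 21 nt, the entropy of 21ur-705 corresponds to 0.101% of reads in the lesser one (0.0669 to 0.137 from the rounding of the deposited value). Read instead as 21 nt RNAs with a share of 24 nt reads, it corresponds to 0.101% as well. Reads of 18 to 20 nt within the block raise the entropy and so lower these estimates, which therefore do not count the reads outside the block. Among the 20 clusters with the most reads the estimate was under 1% in 11, from 1% to under 5% in 7 and 5% or more in 2. Those last 2 were the 25 nt cluster of 21ur-5086 and 21ur-3969 with 6.29% and 21ur-621 with 34.2% (33.1 to 35.3).

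Across the 72 wide clusters with at least 30 reads the median estimate for the lesser 21 nt RNA was 1.94%, with quartiles of 0.774% and 3.73%, and 58 lay under 5%. Over the 66 of them that were at most 26 nt wide, the reading with longer RNAs gave a median of 2.09%. Estimates above 20% were found in 4, chosen after their values were seen. They were 21ur-621 (22 nt, 290 reads) and the clusters of 21ur-3964 and 21ur-2026 (22 nt, 135 reads, 32.1%), of 21ur-467 and 21ur-757 (24 nt, 36 reads, 25%) and of 21ur-4162 and 21ur-2311 (22 nt, 55 reads, 21.9%). So 3 of these 4 name 2 piRNAs. In the 15 clusters of this depth that name several piRNAs the median was 5.47% (range 0.359% to 32.1%), and in the 57 that name 1 it was 1.69% (0.101% to 34.2%). The ranges overlap almost fully, and clusters that name several piRNAs had fewer reads, with a median of 55 against 129. The estimates hold only as far as a cluster is made of 2 RNAs, while most of these have more sequences.

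**Figure D5:**
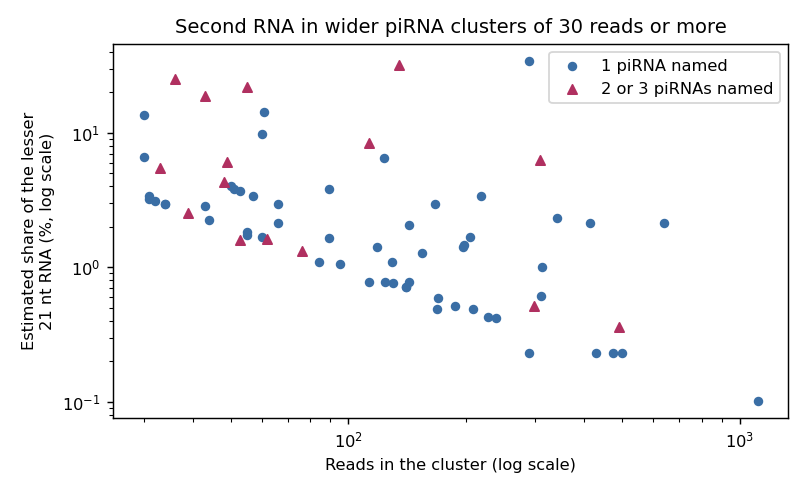
Estimated share of reads in the lesser of 2 shifted RNAs of 21 nt, in % on a log scale, against the reads of the cluster on a log scale, for the 72 wide piRNA clusters with at least 30 reads; blue circles name 1 piRNA, red triangles 2 or 3. Most points lie low, at a median of 1.94%, along a lower edge that falls with depth, and 4 clusters lie above 20%.

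Overlapping piRNA genes were more frequent under the wide clusters. More than 1 piRNA was named by 60 of 286 wide clusters (21%, 16.4 to 26.2), by 5 of 84 narrow ones (5.95%, 1.96 to 13.3) and by 111 of 1543 clusters of 21 nt (7.19%, 5.95 to 8.60). The share was 16.3% (9.82 to 24.9) at 22 nt, 0 of 15 at 23 nt, 23% (14.6 to 33.2) at 24 nt, 36.6% (22.1 to 53.1) at 25 nt and 25% (8.66 to 49.1) at 26 nt. It was 3 of 19 (15.8%, 3.38 to 39.6) at 27 to 34 nt, so it did not grow steadily with width. Among clusters with 2 to 4 reads it was 20.8% (12.2 to 32) of 72 wide ones and 6.74% (4.62 to 9.43) of 460 of 21 nt, and with 5 to 9 reads 16.1% (7.62 to 28.3) of 56 and 8.05% (5.05 to 12) of 261. With 10 to 29 reads it was 24.4% (15.3 to 35.4) of 78 wide ones and 8.13% (4.81 to 12.7) of 209 of 21 nt. With 30 to 99 reads it was 29.4% (15.1 to 47.5) of 34 and 5.26% (1.45 to 12.9) of 76, and with 100 or more reads 13.2% (4.41 to 28.1) of 38 and 7.41% (0.910 to 24.3) of 27. The wide clusters had the higher share in each of these 5 classes, and the intervals overlap at 5 to 9 reads and at 100 or more. Of the 8 wide clusters with 1 read, 2 named several piRNAs, against 36 of 510. A wider span can overlap more loci, and 2 shifted loci that both give reads merge into a cluster wider than 21 nt. Some excess is therefore built into the grouping, also at equal read number, and its size was not tested. In all, the 370 clusters named 437 piRNA loci.

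A cluster with 3 named piRNAs occurred 2 times among clusters of other widths. The 22 nt cluster of 21ur-1475, 21ur-5316 and 21ur-2198 (IV 15142622 to 15142643, minus strand) held 33 reads (22.7 to 46.3) of 5 sequences. The 26 nt cluster of 21ur-4096, 21ur-1831 and 21ur-1727 (IV 14475423 to 14475448, minus strand) held 2 reads of 2 sequences. Neither can be divided among its loci, since reads are counted per cluster.

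The 5 widest clusters differed in how their reads were spread. At 34 nt, 21ur-3957 (IV 14242610 to 14242643, plus strand) had 27 reads of 5 sequences, and the cluster of 21ur-2997 and 21ur-2463 (IV 16627532 to 16627565, plus strand) had 3 reads of 3 sequences. At 31 nt, the cluster of 21ur-3871 and 21ur-236 (IV 13761127 to 13761157, plus strand) had 62 reads, 21ur-2059 (IV 15914671 to 15914701, plus strand) 60 reads of 8 sequences, and 21ur-57 (IV 17217618 to 17217648, minus strand) 3 reads. The entropy of 21ur-3871 and 21ur-236 reached 89.9% of the value for even coverage of 21 positions, and that of 21ur-2059 reached 60.9%. The first value lies nearer to that of a single evenly covered 21 nt block than the second. The leading 26 nt cluster, 21ur-1267 (IV 15151969 to 15151994, minus strand), had 130 reads (109 to 154) of 3 sequences. Its solutions all held at least 127 reads of 21 nt.

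Sequence diversity went with width and depth. More than 1 distinct sequence was found in 283 of the 370 clusters (76.5%, 71.8 to 80.7), namely in 97.2% of wide (94.6 to 98.8) and 5.95% of narrow clusters, against 23.3% (21.2 to 25.5) of clusters of 21 nt. At 100 reads or more the median number of sequences was 7 in wide clusters and 4 in 21 nt clusters, and at 10 to 29 reads it was 3 and 2. A wide cluster needs more than 1 sequence unless a single read is that long, so a gap of this kind is built into the grouping. Edits to the genome, which can be sequencing errors or added bases, occurred at 1.27 per 100 reads (1.09 to 1.48) in clusters of other widths and at 1.08 (0.946 to 1.23) in 21 nt clusters, with overlapping intervals.

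In position, the clusters of other widths did not stand apart from the 21 nt clusters beyond counting error. All 370 lay on chromosome IV, 24 in the first window with 576 reads (between IV 4963596 and 6452401) and 346 in the second with 13396 reads (between IV 13629610 and 17217648). The first window held 6.49% (4.20 to 9.50) of them and 9.66% (8.23 to 11.2) of 21 nt clusters. By width it held 13.1% (6.72 to 22.2) of the 18 to 20 nt, 3.37% (1.55 to 6.30) of the 22 to 26 nt and 21.1% (6.05 to 45.6) of the 27 to 34 nt clusters, so the middle class lay below the 21 nt clusters and the others did not. Of all 286 wide clusters it held 4.55% (2.44 to 7.65), an interval below that of the 21 nt clusters. The 21 nt clusters of the first window held 941 reads in 149 clusters, against 20128 in 1393 in the second, and the part of read number in these shares was not tested. Introns on the same strand contained 15.9% (12.4 to 20.1) of the clusters of other widths and 14.2% (12.5 to 16) of 21 nt clusters. Coding genes on the opposite strand overlapped 17.6% (13.8 to 21.8) and 16.3% (14.5 to 18.2), and 46.2% (41.0 to 51.4) and 47.6% (45.1 to 50.2) lay on the plus strand. For the window, introns, opposite genes and strand, the intervals of all 370 clusters and of the 21 nt clusters overlap.

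Transcripts of piRNA factors were represented by few reads, with a median of 2.5 sense reads against 0 over all protein-coding genes. Of 19 listed genes for biogenesis, end processing and effectors, 16 were found in the gene table, and 15 of these (93.8%, 69.8 to 99.8) had sense exon reads, against 37.1% (36.5 to 37.8) of 19983 protein-coding genes. prg-1, the Piwi gene, had 25 sense reads, parn-1, the 3′ trimming nuclease, had 2, and henn-1, the methyltransferase, had 1. The nuclear Argonaute gene hrde-1, which acts downstream of piRNAs, had 79, and tofu-4 had 0. Such reads are 18 to 26 nt pieces and are no measure of the level of the messenger RNA. Antisense reads were found for 10 of the 16 genes, against 17.5% of protein-coding genes.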

How the data were processed

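Values come from 1 deposited list of read clusters. Its name shortens the title of the monophosphate library, which is how it was assigned. Reads were mapped with Bowtie2 2.1.0, per the submitters' processing notes, and the program that made the clusters is named parclip, per the second column. Genome build, annotation release, trimming and filters are not given in the sources used here. Per the list's name, reads were 18 to 26 nt long, so reads of other lengths do not enter its total. Read counts per cluster are raw counts as deposited. The score column of the deposited list is an entropy, equal after rounding to the profile entropy in all 46646 clusters without edits.

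Profile entropy was taken as log2 of the width minus the Shannon entropy of the coverage. This gave the deposited value, within 1e-09, in 4552 of 4552 clusters with 2 reads of 2 sequences. Every placement of 2 or 3 RNAs of 18 to 26 nt was compared with the deposited score (tolerance 2e-11). In simulated 2-sequence clusters, the true pair was the sole solution for 93 of 100 pairs of 21 nt RNAs and 98 of 100 pairs with a longer RNA. That the true pair was always found, and no sole solution was wrong, follows from the design. The same entropy formula was used without noise, and every placement was searched. Only these 2 kinds of pairs were simulated, at widths up to 26 nt and at least 3 reads. Errors on other pairs or wider clusters were not tested.

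Symbols matched 436 of 437 piRNA loci. A further 2 piRNA clusters with another non-coding entry (27 reads) were left out. Named clusters were the 20 with the most reads, the 5 widest, the 5 with the most sequences, those with 3 or more piRNAs, those outside the windows (none) and the leader of each width. Where clusters of a width were tied in reads, 1 of them was taken as the leader. Members, lists and comparisons were chosen with earlier results of these data known. Shares have Clopper-Pearson and counts Poisson 95% intervals; without molecular identifiers, reads are not independent molecules. Alternatives were a minimum of 2 reads, no edits, 1 named piRNA, high uniqueness and keeping the classes left out. The upstream motif of piRNA genes was not analysed here. Python 3.11.15, numpy 2.4.6, scipy 1.17.1 and pandas 2.3.3 were used.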

Additional observations from a re-analysis of the deposited data

How the results depend on the processing

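Shares were called moved where an alternative left the counting interval of the reported value. The share of annotated piRNA clusters of other widths (19.3%) was 22.7% with at least 2 reads per cluster, 17.29% without edited clusters, 17.6% with exactly 1 piRNA named and 10.2% at or above the median uniqueness of 42. Their share of reads (39.9%) was 28.7%, 36.8% and 21.4% under the last 3 of these settings. The median uniqueness of wide clusters was 41, just under the cut at 42. A value under 20 was found in 2.45% (0.990 to 4.98) of wide and 2.27% (1.58 to 3.14) of 21 nt clusters. The narrow share (22.7%) fell to 8.25% with at least 2 reads, rose to 27.9% without edits and was 0 at or above the median uniqueness, since no cluster of 18 to 20 nt has a value over 40. The share with several sequences (76.5%) was 93.4%, 71.5% and 94.7% with at least 2 reads, without edits and at high uniqueness. Median reads (6) became 9 with at least 2 reads, 4 without edits and 5 with 1 piRNA named. Keeping the classes left out moved none of these 5 results. For pairs of 21 nt RNAs (73.4% of solved pairs), alternatives added after seeing the data gave 74.4% with at least 3 reads, 71.4% with at least 10 reads and 94.4% where the lesser RNA had at least 2 reads. No paired analysis was possible because 1 library has values. Depth limits the narrow clusters most, since 59 of 84 rest on 1 read.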
